A study of Homo sapiens with 8 samples.

Results

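The genes described here encode the subunits of AMPA and kainate receptors, 2 families of ionotropic glutamate receptor: GRIA1 to GRIA4 for AMPA receptors and GRIK1 to GRIK5 for kainate receptors. They are 9 of the 60668 genes counted in the study, taken by symbol through their Ensembl identifiers, and 4 of them are AMPA and 5 kainate subunits. The set was selected on the contrast that is described below, with its results known, so the members' levels and fold changes are given as a description and without a test. The study asked which RNAs depend on MYC in D283 MED, a cell line derived from a MYC-driven medulloblastoma, a cerebellar tumour of childhood. All 8 libraries came from D283 MED cells that carry a doxycycline-inducible Flag-tagged OMOMYC transgene, delivered with the lentiviral pSLIK vector and selected with hygromycin. OMOMYC is a dominant-negative form of the MYC dimerization domain that competes with MYC for its partners and for its E-box binding sites. The OMO group was untreated and the OMO+DOX group received 0.25 µg/mL doxycycline (DOX) for 72 h, with 4 biological replicates in each group. No line without the transgene was given DOX among these libraries, so an effect of OMOMYC and an effect of DOX itself cannot be told apart, and all values belong to this 1 transduced line.

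AMPA receptors carry most fast excitatory transmission in the brain. They are tetramers of GRIA1 to GRIA4 subunits, and their conductance, calcium permeability and surface delivery depend on which subunits take part. The GRIA2 subunit is edited in its RNA at the Q/R site of the channel pore, where a glutamine codon is read as arginine, and edited GRIA2 makes the receptor nearly impermeable to calcium. Kainate receptors are built in the same way: GRIK1, GRIK2 and GRIK3 can form channels on their own, whereas GRIK4 and GRIK5 need one of those as a partner and raise the affinity for glutamate. In the cerebellum granule neurons receive their excitatory input through AMPA receptors, and Purkinje cells and Bergmann glia use receptors of their own composition.

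The stretch that encodes the pore loop is shown for the 5 members on which the results turn, because the genomic codon in it is the same in all 9 genes and the subunits differ in whether RNA editing recodes it. Each run holds 39 coding bases, 5′ to 3′ on the sense strand, from the GENCODE 29 transcripts on GRCh38, with the Q/R codon in capitals.
GRIA2: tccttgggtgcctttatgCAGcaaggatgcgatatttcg
GRIA3: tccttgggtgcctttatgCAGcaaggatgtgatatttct
GRIA4: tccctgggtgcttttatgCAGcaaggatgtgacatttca
GRIK2: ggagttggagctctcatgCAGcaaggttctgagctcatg
GRIK3: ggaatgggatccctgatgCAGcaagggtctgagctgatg
The stretch of GRIA3 lies at chrX:123417735-123417773 on the plus strand, in exon 11 of 16, and that of GRIA2 at chr4:157336704-157336742 on the plus strand, also in exon 11 of 16. That of GRIA4 is at chr11:105924726-105924764 on the plus strand. In GRIK2 the codon is at chr6:101924713-101924715 on the plus strand and in GRIK3 at chr1:36819740-36819742 on the minus strand, and in both genes the 39 bases cross from one exon into the next. The codon was CAG, for glutamine, in all 9 genes. GRIA2 and GRIA3 share 37 of the 39 bases, GRIK2 and GRIK3 share 32, and GRIA3 and GRIK3 share 23. The gene totals used here hold no base-level calls, so editing itself was not measured. No stretch of 100 bases, the read length, in the annotated transcripts of any member occurred in a transcript of another gene on either strand, and the counts of all 9 members were whole numbers in all 8 libraries.

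The libraries held between 38390696 and 54020506 counted fragments. Levels are given in CPM, counts relative to a library total that was scaled by the trimmed mean of M values (TMM), so that 3 counts, taken as the floor of detection, correspond to between 0.0581 and 0.0748 CPM in a library. Correlations of log2(CPM + 1) over genes were between 0.9925 and 0.9984 within OMO, between 0.9962 and 0.9982 within OMO+DOX, and between 0.901 and 0.916 across the groups. The MYC target genes CAD and NCL were lower with DOX, by 0.48 and 0.44 on the log2 scale, and MYC reads, which cannot be told apart from reads of the OMOMYC transgene where the sequence is shared, went from 939 to 1123 CPM. Of 5 medulloblastoma identity markers, OTX2, NPR3 and ZIC1 were expressed and lower with DOX, BARHL1 was near 0 in both groups and EOMES reached no more than 1.025 CPM. The neuron markers, 6 in all, summed to between 67.6 and 71.8 CPM in OMO and between 73.0 and 76.7 CPM in OMO+DOX, with MAP2 higher (1.95 to 14.7 CPM), SYP and SNAP25 lower and STMN2 at no more than 0.204 CPM in any library. The 5 astrocyte markers summed to between 141 and 159 CPM in OMO and between 71.1 and 80.7 CPM in OMO+DOX, most of it GJA1, while GFAP and AQP4 and the oligodendrocyte marker MOG were at or near 0. The 9 endothelial, immune and fibroblast markers summed to between 24.0 and 29.1 CPM in all libraries, most of it COL1A1. PECAM1 and PTPRC were at or near 0. CDH5 was at 0 CPM in OMO and 1.85 CPM in OMO+DOX, and it passed the expression filter through OMO+DOX alone. VWF went the other way, at 3.26 CPM in OMO and 1.24 CPM in OMO+DOX. At levels under 1 CPM, COL1A2 and DCN were lower and CD68 and AIF1 higher with DOX. The part of these marker changes in the results below was not tested. In bulk RNA, fewer cells that express a gene and less of its RNA per cell cannot be told apart.

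Among the AMPA receptor genes, DOX was accompanied by the appearance of GRIA3 RNA at a high level and of GRIA4 RNA at a low one, while GRIA1 and GRIA2 stayed under 1 CPM. GRIA3 (ENSG00000125675.18), whose subunit pairs with GRIA2 in many brain receptors, spans chrX:123184153-123490915 on the plus strand. It had 0 counts in all 4 OMO libraries. In the OMO+DOX libraries it had 8484, 6695, 8317 and 7317 counts, or 167, 167, 163 and 161 CPM (164 ± 3.08, SD, n = 4). The groups did not overlap, and the 4 treated libraries were close to one another. Against the floor of 3 counts per library, this is at least 2658-fold higher with DOX. It was 1 of 28 genes that passed the expression filter and had 0 counts in every OMO library.

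GRIA4 (ENSG00000152578.13; chr11:105609994-105982092, plus strand) encodes a subunit with fast kinetics that is abundant in cerebellar granule neurons and Bergmann glia. Its counts were 3, 0, 0 and 2 in the OMO libraries. With DOX they were 63, 59, 57 and 53, or 1.24, 1.47, 1.11 and 1.17 CPM (1.248 ± 0.157, SD, n = 4). Every treated library was above every untreated one, but the level stayed low. The ratio of the summed counts, 232 to 5, was 48.2 with a 95% interval of 20.3 to 149.7 (exact binomial, counting error only). The fitted log2 fold change was 5.46 (SE 0.40), and it went from 5.04 to 6.24 when 1 OMO library was left out, with 6.24 without replicate 1, which holds 3 of the 5 counts.

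GRIA1 and GRIA2, the subunits of the commonest AMPA receptors of the forebrain, were detected in every library but reached 1 CPM in none. GRIA1 (ENSG00000155511.18; chr5:153489615-153813869, plus strand) had 40, 30, 32 and 19 counts in OMO and 6, 14, 13 and 13 in OMO+DOX. These are 0.618 ± 0.162 and 0.252 ± 0.0974 CPM (SD, n = 4), and the lowest OMO library (0.426 CPM) was above the highest OMO+DOX library (0.349 CPM). The ratio of OMO to OMO+DOX was 2.535 from the summed counts, with a counting interval of 1.791 to 3.642. GRIA2 (ENSG00000120251.20; chr4:157204182-157366075, plus strand) had 41, 35, 35 and 41 counts in OMO and 18, 27, 28 and 25 in OMO+DOX, or 0.786 ± 0.112 and 0.531 ± 0.131 CPM. Its groups nearly touched, at 0.677 CPM in the lowest OMO library and 0.673 in the highest OMO+DOX library, and the ratio was 1.495 (1.152 to 1.947). Both genes were under the expression filter used here (above 1 CPM in 4 libraries or more), and so have no place in the fit described next. Fitted without the filter, their log2 fold changes were -1.34 (SE 0.30) for GRIA1 and -0.60 (SE 0.23) for GRIA2.

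The kainate receptor genes were all expressed in the untreated OMO group and differed with DOX in different directions. GRIK3 was lower with DOX, GRIK2 higher, GRIK1 and GRIK4 lower by smaller steps, and GRIK5 was near its OMO level. GRIK3 (ENSG00000163873.10; chr1:36795527-37034129, minus strand) encodes a channel-forming subunit with low affinity for glutamate. It was at 32.7, 32.6, 26.0 and 33.0 CPM in OMO (31.1 ± 3.36, SD, n = 4) and at 6.74, 6.43, 5.86 and 6.82 CPM in OMO+DOX (6.465 ± 0.435). The groups lay far apart, with OMO replicate 3 below the other 3 OMO libraries. The fitted log2 fold change was -2.27 (SE 0.09), and OMO exceeded OMO+DOX by 4.81-fold.

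GRIK2 (ENSG00000164418.20; chr6:101181257-102070083, plus strand), a channel-forming subunit of many brain kainate receptors, went the other way. It was at 5.41, 5.67, 4.90 and 5.76 CPM in OMO and at 15.3, 15.4, 14.9 and 13.98 CPM in OMO+DOX, which is 5.434 ± 0.387 against 14.9 ± 0.654 (SD, n = 4). All treated libraries were above all untreated ones by a margin wider than either group's range, and the log2 fold change was 1.46 (SE 0.07). GRIK1 (ENSG00000171189.17; chr21:29536933-29940033, minus strand), the remaining channel-forming subunit, was at 2.06, 2.34, 1.52 and 1.97 CPM in OMO and at 0.986, 1.05, 0.860 and 1.17 CPM in OMO+DOX. The groups did not overlap, and the log2 fold change was -0.96 (SE 0.16). A pair of antisense transcripts and the coding gene BACH1 overlap GRIK1 on the opposite strand: GRIK1-AS1 was at 3.31 CPM in OMO and 4.03 in OMO+DOX, and BACH1 at 84.1 and 126 CPM. The library kit kept the strand, but whether the counting used it is not given in the sources used here. The same limit holds for GRIK4 and GRIK5. As given above, no stretch of 100 bases in the transcripts of these members occurred in another gene's transcript on the opposite strand. Shorter stretches were not looked at. An antisense transcript opposite GRIK4 was at 1.19 CPM in OMO and 0.549 in OMO+DOX. The coding gene ZNF574, opposite GRIK5, was at 37.1 and 36.8 CPM.

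Of the partner subunits, GRIK4 (ENSG00000149403.12; chr11:120511700-120988904, plus strand) had the highest level per kilobase of the kainate subunits in both groups. It was at 38.5, 34.8, 36.2 and 39.3 CPM in OMO (37.2 ± 2.05) and at 30.4, 27.7, 28.99 and 28.05 CPM in OMO+DOX (28.8 ± 1.22). The groups did not overlap, and the log2 fold change of -0.37 (SE 0.05) was small beside those of GRIK2 and GRIK3. GRIK5 (ENSG00000105737.9; chr19:41998321-42069498, minus strand) ranged from 11.1 to 12.2 CPM in OMO and from 10.6 to 12.7 CPM in OMO+DOX. Its groups overlapped, and the log2 fold change was 0.05 (SE 0.07). GRIK5 was the only member whose groups overlapped. Since the groups did not overlap for 71.7% of all tested genes, nothing is read from this.

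**Figure D1:**
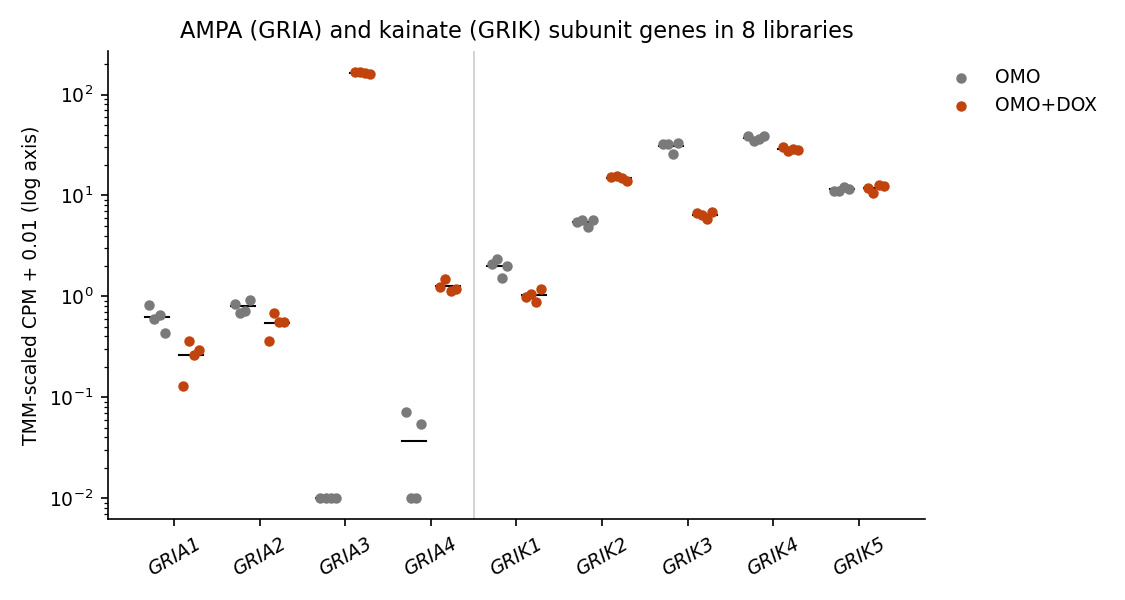
TMM-scaled CPM plus 0.01 (log axis) of the 4 AMPA and 5 kainate subunit genes in the 4 OMO (grey) and 4 OMO+DOX (orange) libraries; each point is a library and each bar the group mean. GRIA3 lies at the bottom of the axis (0 CPM) in the 4 OMO libraries and between 161 and 167 CPM in the 4 OMO+DOX libraries, and the points of GRIK5 overlap.

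The fit ran over all genes that passed the filter, with edgeR's quasi-likelihood method, and a gene was called differentially expressed at a false discovery rate (FDR) below 0.001 and an absolute log2 fold change above 2. Of 15222 genes tested, 7.12% were called, 4.38% as higher and 2.75% as lower with DOX. Among the 9 members 7 were tested and 3 called, GRIA3 and GRIA4 as higher and GRIK3 as lower. GRIA3 and GRIA4 passed the filter through their OMO+DOX libraries alone. The filter is worded in 2 ways in the text of the study, and under the stricter wording, at least 5 libraries above 1 CPM, GRIA3 and GRIA4 were not tested and GRIK3 was the only member called. At the wider limit of FDR 0.05 with no fold threshold, which 38.5% of the tested genes passed as higher and 38.1% as lower, 3 members were higher (GRIA3, GRIA4 and GRIK2), 3 lower (GRIK1, GRIK3 and GRIK4) and GRIK5 was neither. The groups did not overlap for 71.7% of the tested genes, and for 6 of the 7 members tested. Since the members were chosen with this contrast in view, nothing is read from these counts. GRIK3, at -2.27, was the member just inside the fold threshold, and GRIK2, at 1.46, the one just outside it. The median log2 fold change over all tested genes was 0.0121.

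Levels of different genes were compared per kilobase of merged exons, which run from 4242 bases in GRIK1 to 10111 in GRIK3. In OMO the order was GRIK4 (4.95 ± 0.272 CPM per kb, SD, n = 4), GRIK3 (3.07 ± 0.332), GRIK5 (2.29 ± 0.105), GRIK2 (0.716 ± 0.051) and GRIK1 (0.466 ± 0.0799), followed at a distance by GRIA2 (0.0879), GRIA1 (0.0810), GRIA4 (0.00263) and GRIA3 (0). Only the neighbours GRIA2 and GRIA1, and GRIA4 and GRIA3, overlapped in their libraries. In OMO+DOX GRIA3 came first at 25.4 ± 0.476 CPM per kb, ahead of GRIK4 (3.83), GRIK5 (2.36), GRIK2 (1.96), GRIK3 (0.639), GRIK1 (0.239), GRIA4 (0.124), GRIA2 (0.0594) and GRIA1 (0.0330). There the libraries overlapped only between the neighbours GRIA2 and GRIA1. The order depends on the length used. Without scaling by length, GRIK2 (14.9 CPM) was above GRIK5 (11.86 CPM) in OMO+DOX, and GRIA4 (1.248 CPM) above GRIK1 (1.015 CPM).

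The make-up of the AMPA receptor RNA differed between the 2 groups. In OMO GRIA2 held 51.6 ± 7.85% and GRIA1 46.9 ± 8.52% of the AMPA subunit RNA on the per-kilobase scale. These shares came from counts between 19 and 41 in a library. GRIA4 held 1.42 ± 1.64%. With DOX GRIA3 held 99.2 ± 0.14%, GRIA4 0.484%, GRIA2 0.233% and GRIA1 0.129%. The sum over GRIA1 to GRIA4 went from 0.172 ± 0.024 to 25.6 ± 0.481 CPM per kb. Kainate subunit RNA, in contrast, was 11.5 ± 0.514 CPM per kb in OMO and 9.04 ± 0.246 in OMO+DOX, and it was divided over more genes. The share of GRIK3 went from 26.7 ± 2.02% to 7.08 ± 0.503% and that of GRIK2 from 6.23 ± 0.278% to 21.7 ± 1.17%. GRIK4 held 43.0% and 42.4% in OMO and OMO+DOX, GRIK5 between 18.9% and 22.5% in OMO and 26.2% on average in OMO+DOX, and GRIK1 4.04% and 2.65%. Among the channel-forming subunits, GRIK3 led in each OMO library and GRIK2 in each OMO+DOX library. In OMO+DOX the AMPA sum was above the kainate sum in every library, and in OMO it was below.

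**Figure D2:**
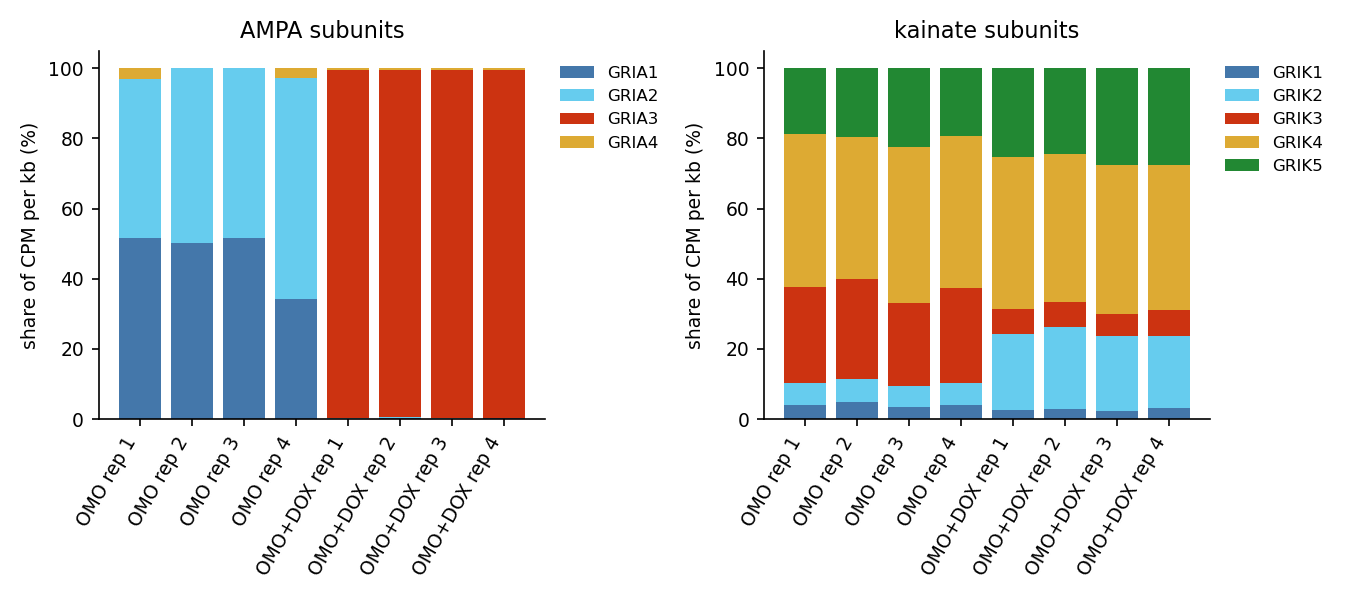
Share of each subunit gene (percent of CPM per kilobase of merged exons, summed over the family) in each of the 8 libraries, for GRIA1 to GRIA4 (left) and GRIK1 to GRIK5 (right). GRIA1 and GRIA2 fill the OMO bars on the left and GRIA3 the OMO+DOX bars, at 99.2% on average; on the right, GRIK3 shrinks from 26.7% to 7.08% and GRIK2 widens from 6.23% to 21.7%.

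The members also share features that the choice did not use. Their genes are long, with a median span of 324255 bases and a range from 71178 (GRIK5) to 888827 (GRIK2), against a median of 34510 for the 12991 protein-coding genes tested. They lie on 8 chromosomes, GRIA4 and GRIK4 both on chromosome 11.

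The RefSeq promoter table on GRCh38.p14 held 14 windows of 300 bases, each holding a start site with mostly upstream sequence, for 7 of the members, with none for GRIA3 and GRIK1. None of the 14 held the E-box letters CACGTG, a palindrome and so the same on both strands. It occurred in 7.26% of all 35116 windows given by RefSeq and in 9.28% of windows of the genes tested, so few or no matches would be found in 14 windows in any case, and nothing is read from their absence.

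The nearest protein-coding genes were looked up on each side of the 3 members called. Beside GRIA3, THOC2, an mRNA export factor 109646 bases away, was at 125 CPM in OMO and 134 in OMO+DOX (log2 fold change 0.10, adjusted p = 0.225 by edgeR's quasi-likelihood test over all genes). GLUD2, 2134073 bases away on the other side, was under 1 CPM in both groups. The neighbours of GRIA4 were near 0 in both groups: CARD18 had no count and MSANTD4 was at 0.0211 and 0.0437 CPM. Beside GRIK3, CSF3R was at 0.528 and 0.326 CPM and not tested. ZC3H12A, 440423 bases away on the other side of GRIK3, was at 2.20 CPM in OMO and 6.06 in OMO+DOX, and so higher with DOX where GRIK3 was lower (log2 fold change 1.46, adjusted p = 1.32e-07 by the same test). Over the 8 libraries and 15197 genes, the profiles nearest to that of GRIA3 by Euclidean distance of log2(CPM + 1) were those of NGFR (distance 0.506), PDE9A (0.719) and PYY (0.823). The profiles nearest to that of GRIK3 were those of ORC1 (0.365), PCBP3 (0.422) and RGS6 (0.440). These describe likeness of level over the same libraries and no more.

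Outside the subunits themselves, 80 genes of 8 lists by function were followed: auxiliary subunits, assembly factors, scaffolds and trafficking proteins, RNA editing enzymes and the other glutamate receptors and transporters. The lists were set with earlier results of these data known. Of these 80 genes 52 were tested, 6 rose (11.5% of those tested) and 3 fell (5.77%) at the thresholds given above, for which the background was 4.38% and 2.75%. Among the genes that rose, CACNG4, NPTX2, LRRTM1 and ARC were under 1 CPM in every OMO library and passed the filter through OMO+DOX alone, so their calls support nothing beyond the values and no p is given for them. The median log2 fold change of the 52 related genes tested was -0.0167, against 0.0121 over all genes. At FDR 0.05 with no fold threshold 25 of these 52 were higher, 22 lower and 5 neither. Over all tested genes 38.5% were higher and 38.1% lower at this limit, and nothing is read from the counts. The adjusted p-values below come from edgeR's quasi-likelihood test over all genes tested.

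Of the AMPA receptor auxiliary subunits, which ride on the receptor and set its gating and delivery, 6 of 15 were tested, 1 rose and 1 fell, and the median log2 fold change was -0.449. CACNG2, or stargazin, which brings AMPA receptors to the surface of cerebellar granule neurons, was at 20.5, 18.3, 17.9 and 18.5 CPM in OMO and at 1.38, 1.22, 1.66 and 1.67 CPM in OMO+DOX. It fell by 3.65 on the log2 scale (SE 0.10, adjusted p = 2.79e-11), or 12.7-fold. Its relative CACNG4 was at 0.388, 0.406, 0.508 and 0.650 CPM in OMO and at 12.8, 11.04, 11.7 and 11.4 CPM in OMO+DOX. The fitted log2 fold change of CACNG4 was 4.59 (SE 0.13). The groups were far apart for both genes, in opposite directions. SHISA9, which slows recovery of the receptor from desensitization, was at 15.7 CPM in OMO and 9.34 in OMO+DOX, and it was not called (log2 fold change -0.75). CACNG5 was at 13.5 and 3.67 CPM and lay just outside the fold threshold at -1.88, and it was called when OMO replicate 3 was left out. CACNG5 was singled out after its value was seen.

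Of the kainate receptor auxiliary subunits and their extracellular partners 5 of 6 were tested and 1 rose, with a median of 0.44. NETO1, a transmembrane protein that binds kainate receptors and slows their kinetics, was at 2.49, 2.73, 1.91 and 2.44 CPM in OMO and at 14.9, 15.0, 14.9 and 13.9 CPM in OMO+DOX. It rose by 2.61 on the log2 scale (SE 0.10, adjusted p = 3.88e-10). NETO2, the other protein of this kind, was at 76.3 CPM in OMO and 51.1 in OMO+DOX, with a log2 fold change of -0.58, and was not called. The values of GRIK2 and NETO1 were both higher with DOX in 4 of 4 libraries than in any OMO library. Those of NETO2 were lower in the same way, and so were those of GRIK1, GRIK3 and GRIK4. Since the groups did not overlap for 71.7% of all tested genes, no link between a subunit and an auxiliary protein is read from this.

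The proteins that assemble AMPA receptors in the endoplasmic reticulum gave no call among 6 tested of 7, with a median of -0.285. CNIH1, a cargo receptor of the cornichon family, was at 234 CPM in OMO and 147 in OMO+DOX, and SACM1L at 43.9 and 57.4 CPM. FRRS1L, which is needed for the early assembly of the receptor, was near 0 in both groups and not tested.

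Scaffold and trafficking proteins were mostly expressed, with 21 of 24 tested, 3 that rose, none that fell and a median of 0.347. NPTX2, a secreted pentraxin that clusters AMPA receptors at synapses, was at 0.143, 0.310, 0.244 and 0.359 CPM in OMO and at 298, 275, 318 and 328 CPM in OMO+DOX. The fitted log2 fold change was 10.2 (SE 0.13). LRRTM1, a synaptic adhesion protein that organizes excitatory synapses, had 1 count in all OMO libraries together and between 49.1 and 54.5 CPM in the OMO+DOX libraries, and the ratio of its summed counts was 10300 with a counting interval of 1849 to 407000. ARC, which drives the removal of AMPA receptors from the surface, was at 0.0871 ± 0.0243 CPM in OMO and 3.15 ± 0.0999 in OMO+DOX (SD, n = 4), a fitted log2 fold change of 5.13 (SE 0.17). None of the 3 genes had groups that overlapped, which held for 71.7% of all tested genes. All 3 passed the filter through OMO+DOX alone, so nothing is read from it. NSF, the ATPase that binds the GRIA2 tail, was at 96.3 CPM in OMO and 160 in OMO+DOX and was not called (log2 fold change 0.73). In OMO+DOX, GRIA3, NPTX2 and LRRTM1 were thus present at 164, 305 and 52.8 CPM, and each was at or near 0 in OMO.

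Among the RNA editing enzymes neither of the 2 tested was called. ADARB1, which edits the Q/R site of GRIA2, was at 61.9 ± 3.83 CPM in OMO and 57.1 ± 2.60 in OMO+DOX, and did not pass FDR 0.05 (adjusted p = 0.0731). ADAR was at 679 and 443 CPM, with a log2 fold change of -0.62, and was not called.

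Of the other glutamate receptors, GRIN1, the obligatory NMDA receptor subunit, was at 0.245 CPM in OMO and 0.0676 in OMO+DOX and so was not tested, and it is named here after its values were seen. GRID1, a delta receptor subunit, was at 10.2 and 5.74 CPM and was not called, and neither was GRM8, a metabotropic receptor, at 1.48 and 2.18 CPM. Of 8 glutamate transporters 5 were tested and 1 fell: SLC1A7, a transporter of photoreceptors and bipolar cells, was at 191 CPM in OMO and 47.6 in OMO+DOX. Its log2 fold change of -2.005 (adjusted p = 3.44e-10) lay just past the fold threshold, and the call was lost without OMO replicate 1, without OMO+DOX replicate 2 and with library sizes left unscaled. SLC17A7, the vesicular transporter that loads glutamate for release, was at 48.1 and 55.0 CPM and was not called.

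**Figure D3:**
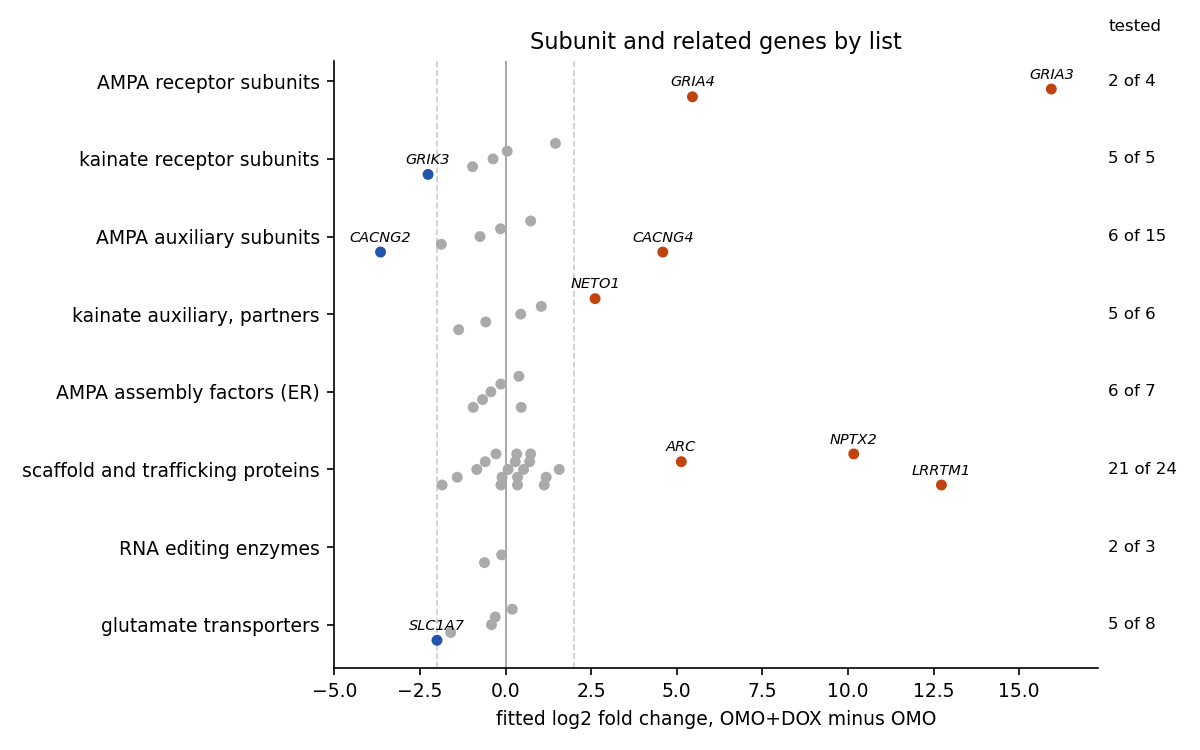
Fitted log2 fold change (OMO+DOX minus OMO) of the tested subunit and related genes, 1 row for each list, without the lists of NMDA, delta and metabotropic receptors, with orange for genes called higher, blue for genes called lower and grey for the rest; dashed lines mark the fold threshold of 2, and the numbers on the right give the genes tested of those listed. The called genes lie between -3.65 (CACNG2) and 15.9 (GRIA3), a fitted value that is set by the prior count because GRIA3 had 0 counts in OMO, and the same holds in part for LRRTM1 with its 1 count.

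**Figure D4:**
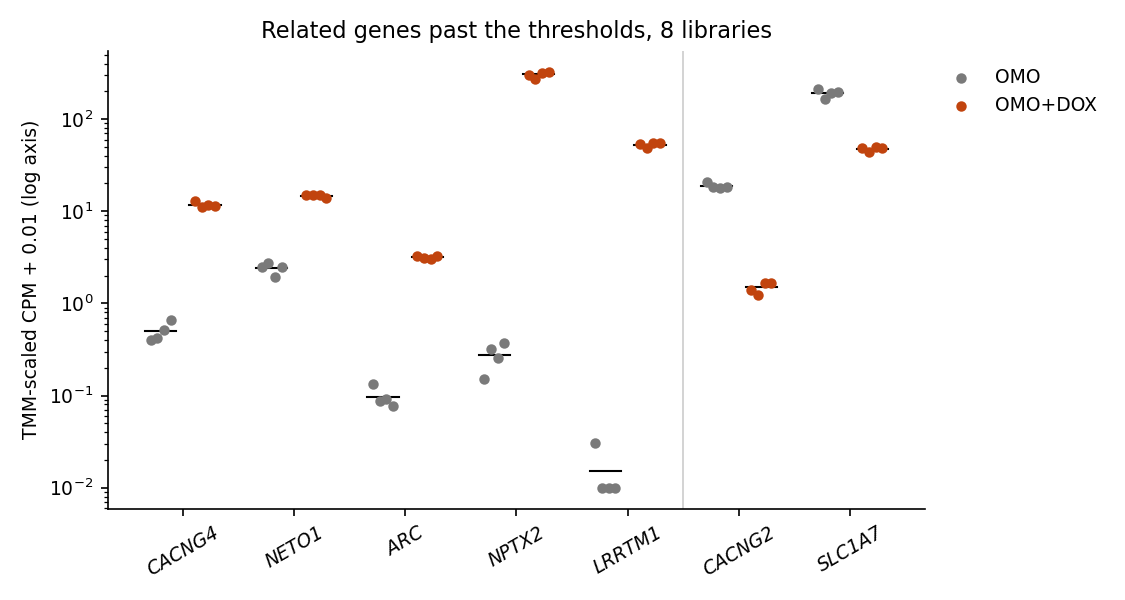
TMM-scaled CPM plus 0.01 (log axis) of 7 related genes past the thresholds in the 4 OMO (grey) and 4 OMO+DOX (orange) libraries; each point is a library and each bar the group mean. The 5 genes on the left are higher and the 2 on the right lower with DOX in every library, and the relatives CACNG2 and CACNG4 lie on opposite sides.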

How the data were processed

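RNA was extracted from D283 MED cells with the inducible OMOMYC transgene, and polyA+ stranded libraries (TruSeq) were sequenced as paired reads of 100 nt. Trimming (Trim Galore), alignment to GRCh38 (STAR) and gene quantification (RSEM, GENCODE release 32) were done by the authors; tool versions and the strand setting of the counting are not given in the sources used here. The authors deposited expected counts for each gene without normalization, and these were rounded to whole numbers here. The sum per library, its depth, was between 38390696 and 54020506. Symbols, spans and lengths came from GENCODE 29 on GRCh38, matched by identifier without version. Genes that exceeded 1 CPM in 4 or more of 8 libraries were tested with edgeR 4.0.16 (R 4.3.3; TMM, glmQLFit and glmQLFTest, Benjamini-Hochberg), with FDR below 0.001 and absolute log2 fold change above 2 as thresholds; DESeq2 1.42.0, other filters and scalings, and leaving out each library were alternatives. The fit was tested on simulated data. No 2 libraries held identical values. Where a value is a ratio of summed counts, the interval is exact binomial and covers counting error only.

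The members and gene lists were chosen with earlier results of these data known. Named were all members, the called genes and the 2 genes with the highest mean CPM of each related list, the 3 nearest profiles and the neighbours given, and MYC, CAD and NCL. Some called genes of these lists are counted but not reported here.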

Additional observations from a re-analysis of the deposited data

Results flagged for a closer look

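GRIK3 in OMO replicate 3 was at 26.0 CPM, while the other 3 OMO libraries were between 32.6 and 33.0 CPM. The gap to the nearest library was 0.942 of the whole range of the group, above Dixon's 95% critical value for 4 samples. In all, 17 groups of 4 libraries were looked at in this way (the 9 members in both conditions, except GRIA3 in OMO, where all values are 0), and chance alone would single out about 1 in 20. Leaving out this library moved the log2 fold change of GRIK3 from -2.265 to -2.345, further than any other single omission did, and GRIK3 was called with each library left out. The share of GRIK3 in the kainate subunit RNA of OMO was 27.7% without it and 26.7% with it. OMO replicate 3 was also the lowest OMO library for other genes, so a low value there was not particular to GRIK3. Among them were the members GRIK1 and GRIK2. The related genes NETO1 (1.91 CPM), ADAR (614 CPM), CACNG2, SHISA9, NETO2, SACM1L, CNIH1, NSF and ADARB1 were others. For GRIK5, SLC17A7, MYC and NCL it was the highest OMO library.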

How the results depend on the processing

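The 3 members called (GRIA3, GRIA4 and GRIK3) remained the called ones under library sizes without TMM, DESeq2 size factors, the DESeq2 Wald test, edgeR's likelihood ratio test, no filter and every omission of 1 library. None of the 7 tested members changed its sign under an alternative that fitted it; GRIA1 and GRIA2 were fitted once, without the filter. With more than 1 CPM required in at least 5 libraries only 1 member (GRIK3) was called, 2 related genes were higher, and 562 genes were called in all, since genes expressed in 1 group only, GRIA3 and GRIA4 among them, are then not tested. Without a filter 11 related genes were higher, 5 lower, and 2097 genes were called. At FDR 0.05 with no fold threshold the counts were 6 members, 25 and 22 related genes, and 11661 genes. The GRIA3 share of AMPA subunit RNA in OMO+DOX was 98.9% by the longest transcript and 98.8% with no length scaling, and the GRIK3 share of kainate subunit RNA in OMO was 23.2% and 35.6%. Related genes called lower numbered 2 to 4 over the omissions of 1 library, 4 without OMO replicate 3, and 2 with unscaled library sizes, where GRIK4 was at -0.24 and GRIK5 at 0.17. The replicate numbers were not used as pairs: deviations of same-numbered libraries correlated at 0.22, 0.201, 0.341 and -0.268, and 1 of 8 libraries matched its own number best. A fit with the replicate block called 1085 genes, 3 of them members, with 6 related genes higher and 3 lower. GRIA1 and GRIA2, at 41 counts or fewer per library, are limited by depth.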
